A study of Mus musculus with 14 samples.

Results

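The acute phase proteins studied here are the orosomucoids (Orm1, Orm2 and Orm3), the serum amyloid A proteins (Saa1, Saa2, Saa3 and Saa4), the pentraxin serum amyloid P (Apcs), haptoglobin (Hp) and hemopexin (Hpx). They were taken by gene symbol from the array's annotation. Of the 12488 probe sets, 11 carried one of these symbols alone. They covered 9 of the 10 genes, out of 8252 genes with a probe set of their own on the array, since Saa1 had none. Saa2 and Hpx had a pair of probe sets each. A further probe set was annotated to both Orm2 and Orm1, and it is described separately and left out of the counts.

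The RNA came from liver of Snell mice. The dwarf animals carry a mutation of Pit-1, the transcription factor that the pituitary needs for its growth hormone, prolactin and thyrotropin cells, in all their tissues and from birth, and they are long-lived. The control animals were labelled wild type. There were 4 wild type mice (animals 82, 84, 86 and 88) and 4 dwarf mice (83, 85, 87 and 89) of 6 months, and 3 wild type mice (1, 2 and 24) and 3 dwarf mice (3, 4 and 8) of 22 months, each with an Affymetrix array of its own. The labels name no treatment, sex, strain or batch, and the allele is given only as a Pit-1 mutation. Values below are MAS5 signals, the linear brightness of a probe set on one array, and they are listed in the order of the animal numbers just given.

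Acute phase proteins are plasma proteins that hepatocytes secrete in larger or smaller amounts during infection and injury. Interleukin 6 acts through the gp130 receptor and STAT3, and interleukin 1 acts through NF-kappaB and C/EBP factors, with glucocorticoids adding to both. In mice the serum amyloids A and P and the orosomucoids are strong responders. Haptoglobin and hemopexin bind free hemoglobin and heme, serum amyloid A travels on high density lipoprotein, and orosomucoid carries basic and neutral drugs and steroids in plasma.

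Promoter stretches of members from each of the Orm, Saa and pentraxin families are shown first, because C/EBP and STAT3 are the factors that the acute phase pathway is known for. RefSeq windows of GRCm38.p6 were found for 8 of the 10 genes (all but Orm1 and Hp), and the 250 bases before each start were searched on both strands. The C/EBP form TTGCNNAA was present in 7 of the 8 windows, against 9.56% of the 32851 windows of the same length. The windows are not independent of each other, since those of Orm2 and Orm3 were 85.5% identical and those of Saa1 and Saa2 were 94.8% identical. Capitals mark the match, and each stretch reads 5′ to 3′ along the gene, in Orm2 at chr4:63362293-63362372 (plus strand), in Orm3 at chr4:63356001-63356080 (plus strand), in Saa2 at chr7:46751614-46751693 (plus strand) and in Saa3 at chr7:46715732-46715811 (minus strand), where the match lies on the opposite strand.
Orm2: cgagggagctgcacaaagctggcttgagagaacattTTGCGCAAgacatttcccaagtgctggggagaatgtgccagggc
Orm3: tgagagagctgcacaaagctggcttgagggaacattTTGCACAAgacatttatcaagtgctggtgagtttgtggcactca
Saa2: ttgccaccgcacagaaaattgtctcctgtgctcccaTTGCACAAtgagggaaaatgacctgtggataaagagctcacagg
Saa3: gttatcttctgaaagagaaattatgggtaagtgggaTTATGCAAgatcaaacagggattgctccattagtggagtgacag

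The window without a C/EBP match was that of Apcs. It was the only one of the 8 with the interleukin 6 response form CTGGGAA, found in 9.1% of all windows, and the only one with the STAT palindrome TTCNNNGAA, found in 7.02%. A STAT palindrome that reads TTC, TGG, GAA holds both forms, but in Apcs the matches lay apart, the palindrome 244 to 236 bases before the start and CTGGGAA on the opposite strand at 129 to 123 and at 52 to 46 bases. The stretch around the match nearest to the start lies at chr1:172895064-172895142 (minus strand), with the match in capitals.
Apcs: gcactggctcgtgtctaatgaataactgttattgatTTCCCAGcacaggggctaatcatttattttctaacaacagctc

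No member window held the NF-kappaB form, GGGA and CC with 4 free bases between them (17.6% of all windows). The same held for the glucocorticoid receptor form, AGAACA and TGTTCT with 3 free bases between, and for the HNF1 form, GTTAAT and ATTAAC with 1 free base between (0.00913% of all windows each). These are matches of letters in a short window and were not tested for binding.

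Some arrays stood apart. The 3' to 5' signal ratio of the beta-actin control, which reads RNA integrity, was 2.51 ± 0.209 (SD, n = 4) in young dwarf mice and 1.87 ± 0.602 (n = 4) in young wild type mice. It was 1.61 ± 0.118 (n = 3) in old wild type mice and 1.46 ± 0.18 (n = 3) in old dwarf mice. The signal of the 18S ribosomal control was 339.8 or more on all 22-month arrays and 587.6 on that of wild type animal 88, and 217.4 or less on the other 6-month arrays. Animal 82 had the highest signals of the young wild type mice for most of these genes. Summed over 7 hepatocyte markers with a probe set, signals ran from 158303 to 220647 in dwarf mice of 6 months and from 120425 to 152616 over the other groups. Alb, Apoa1 and Cps1 were the brightest of these markers, which did not all move alike. Fgb ran from 5416.4 to 7410.3 in young dwarf mice and from 6830.8 to 11548.7 in young wild type mice. The part of these ratios, signals and sums in the results below was not tested. In whole liver fewer cells of a type and less RNA per cell cannot be told apart.

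At 6 months the orosomucoids Orm1 and Orm3, the serum amyloids A2 and A4, serum amyloid P and one hemopexin probe set fell in dwarf liver, whereas Orm2, Saa3, haptoglobin and the other hemopexin probe set did not pass the test. In all, 7 of the 11 probe sets fell and none rose (limma, Benjamini-Hochberg adjusted p under 0.05, two-sided), where 6.95% of the 7227 probe sets tested were called lower. Their median log2 difference was -1.92, against 0.10 over all probe sets tested. In 5 of them every dwarf value lay below every wild type value, which held for 7.8% of all probe sets tested. The 7 were Orm1, Orm3, both Saa2 probe sets, Saa4, Apcs and the less bright Hpx probe set. Without the arrays of animals 82 and 88, an alternative chosen after seeing the data, 3 of the 11 remained called, namely Orm1, Apcs and the brighter Saa2 probe set.

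At 22 months fewer members passed. Apcs and the less bright Hpx probe set fell in dwarf liver, 2 of the 11, where 1.56% of all probe sets tested were called lower. An unadjusted p under 0.05 in limma, in either direction, was found for 6 of the 11, and its share over all probe sets was not computed. The median log2 difference of the members was -0.84, against 0.01 over all. Dwarf and wild type values did not overlap in 7 of the 11, all of them lower in dwarf mice, which held for 11.5% of all probe sets tested. Summed over 11 macrophage markers with a probe set, signals were 4975.9 to 6286.8 in the dwarf and 7339.7 to 11067.1 in the wild type mice of this age. Marco, a marker of Kupffer cells, lay at the floor in all groups, and the part of the macrophage difference in the results was not tested.

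With age, 4 of the 11 member probe sets rose in dwarf mice (Orm1, Orm3, Saa4 and Apcs), where 7.94% of all probe sets tested rose. Old and young dwarf values did not overlap in 5 members that were higher in old mice, which held for 12.6% of all, and in 1, Saa3, that was lower, which held for 16.5%. With the 3' to 5' ratio as a covariate Orm1 alone stayed called, and the calls over all probe sets went from 574 higher and 619 lower to 38 and 13. That ratio differed between the young and old dwarf arrays, as given above. In wild type mice 0 of 11 passed in limma, where 2.49% of all were called in either direction. An unadjusted p under 0.05 was found for 1 of 11, and its share over all probe sets was not computed. The difference between the ages' genotype effects passed for Orm1 and Orm3, 2 of the 11, where 1.54% of all were called higher. The dwarf mice of 6 months enter both the young genotype comparison and the dwarf ageing comparison, so these are not independent of each other.

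**Figure D1:**
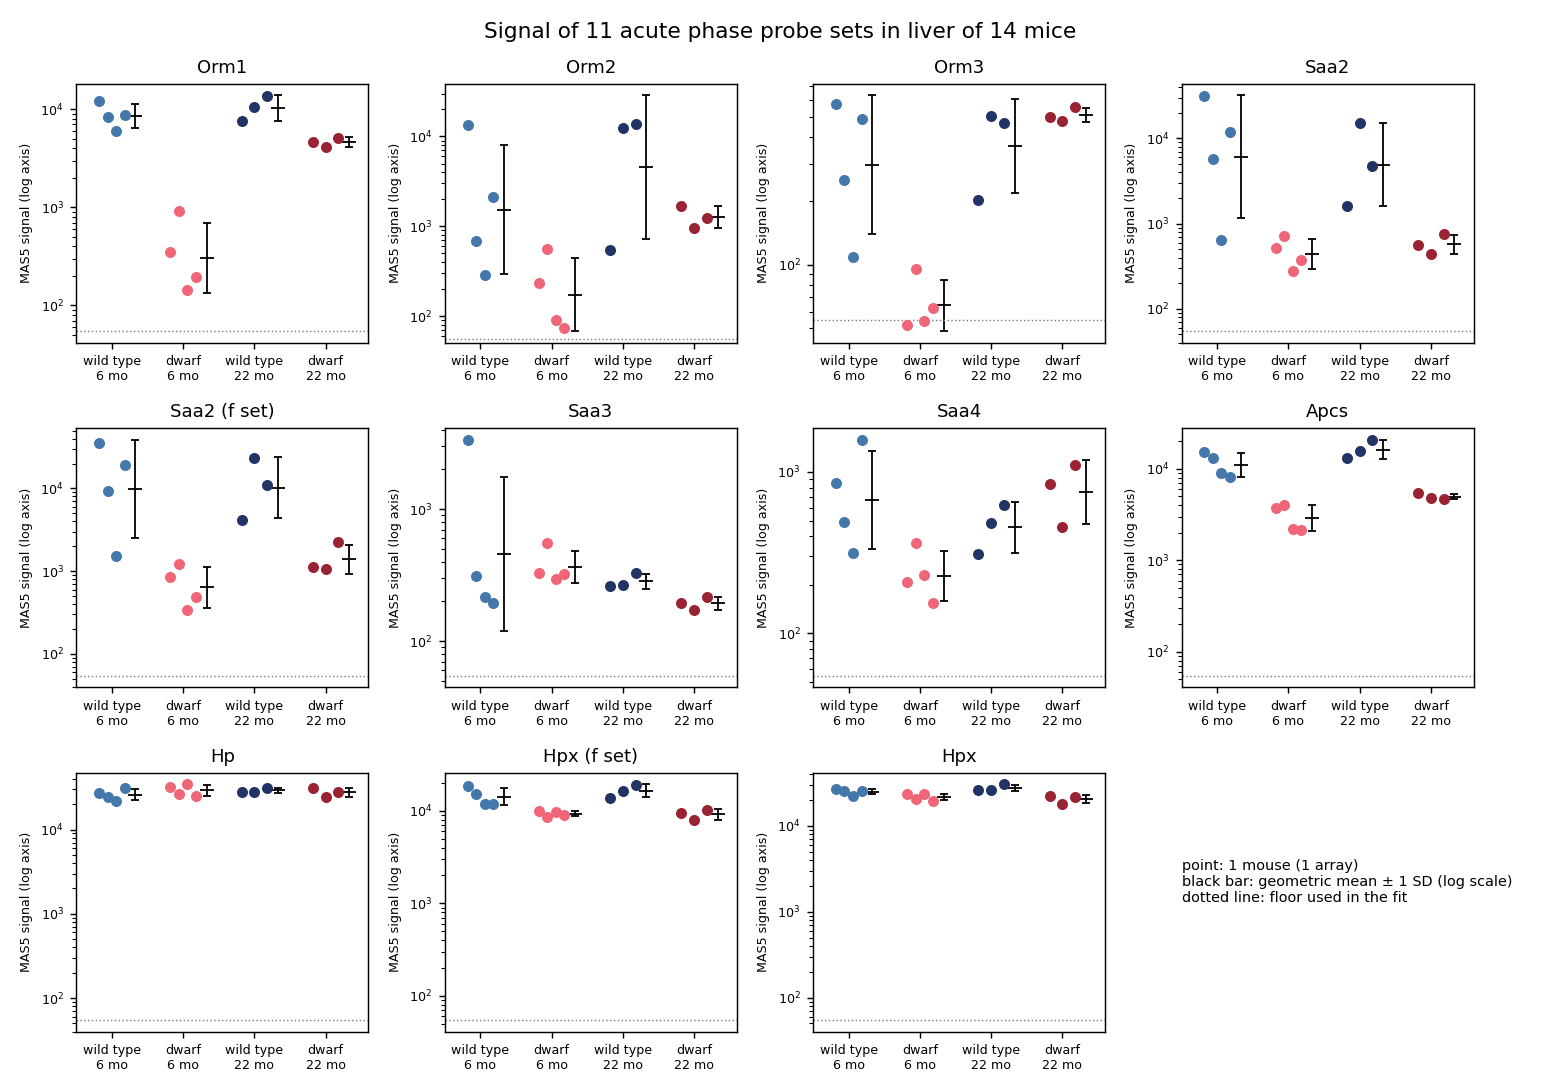
MAS5 signal (log axis) of each of the 11 acute phase probe sets on each of the 14 arrays, by genotype and age. Points are single mice, bars are the geometric mean with 1 SD on the log scale, and the dotted line is the floor of 54.9; the young dwarf mice lie lowest for Orm1, all 7 dwarf mice lie below all 7 wild type mice for Apcs, and the groups of Hp lie on top of each other.

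Orm1 encodes orosomucoid 1, the alpha-1-acid glycoprotein of plasma. Its signals in young wild type mice were 12047.4, 8336.0, 5983.7 and 8778.2, and in young dwarf mice 352.1, 918.2, 142.2 and 193.2. In old wild type mice they were 7540.2, 10433.6 and 13733.2, and in old dwarf mice 4687.8, 4120.7 and 5141.8. The young dwarf mice lay far below every other group, and old dwarf mice lay between them and the wild type mice with no overlap on either side.

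Orm1 fell by 4.79 ± 0.42 on the log2 scale in young dwarf mice (SE, 95% interval -5.68 to -3.91, adjusted p = 1.36e-06). At 22 months the difference was -1.15 ± 0.48 (-2.17 to -0.13), which did not pass (adjusted p = 0.303) although the values did not overlap, and passed when the 22-month groups were fitted alone (adjusted p = 0.0252). With age Orm1 rose 15.1-fold in dwarf mice (log2 3.92 ± 0.45, adjusted p = 0.000385), whereas in wild type mice the difference was 0.27 ± 0.45 (-0.69 to 1.22, adjusted p = 0.804). The genotype difference itself was smaller at 22 months by 3.65 ± 0.64 (adjusted p = 0.00878). This interaction was 3.38 with an adjusted p of 0.0636 without animals 82 and 88, and its adjusted p was 0.0667 without a filter on dim probe sets.

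The probe set shared by Orm2 and Orm1 gave the same order. Its signals were 30844.3, 21064.2, 17847.9 and 19639.4 in young wild type mice and 1138.4, 3657.9, 901.6 and 943.6 in young dwarf mice. At 22 months they were 14767.3, 27172.8 and 30396.4 in wild type and 9956.3, 8331.9 and 9058.0 in dwarf mice. Dwarf values lay below wild type values at both ages. It fell 15.9-fold at 6 months (adjusted p = 2.01e-06) and rose 6.63-fold with age in dwarf mice (adjusted p = 0.000774), and its interaction was 2.65 ± 0.55 (adjusted p = 0.0219). It is not independent evidence for either gene.

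Orm2, a close relative of Orm1, varied widely within groups. Its signals were 13299.8, 680.1, 290.1 and 2125.4 in young wild type mice and 234.4, 561.8, 91.2 and 74.4 in young dwarf mice. They were 543.1, 12543.5 and 13821.1 in old wild type mice and 1678.0, 954.1 and 1242.8 in old dwarf mice. Wild type animals 82, 2 and 24 stood above all others, and the values of the 7 wild type mice spanned 47.6-fold. None of its differences passed, with -3.15 ± 1.09 at 6 months (-5.47 to -0.83, adjusted p = 0.067), -1.85 ± 1.26 at 22 months (adjusted p = 0.642) and 2.86 ± 1.18 with age in dwarf mice (0.36 to 5.37, adjusted p = 0.105). The young and old dwarf values did not overlap. The difference at 6 months passed under median scaling (adjusted p = 0.0497) and without animal 1 (0.0309), 85 (0.04998) or 86 (0.0312). The ageing difference passed when the dwarf groups were fitted alone (0.0179) and without animals 82 and 88 (0.0497).

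Orm3, the third orosomucoid gene, was dim. Its signals were 574.3, 250.9, 109.0 and 488.2 in young wild type mice and 52.0, 95.8, 54.4 and 62.7 in young dwarf mice, 2 of which lay at or below the floor of 54.9. At 22 months they were 201.3, 505.4 and 468.4 in wild type and 501.0, 477.8 and 555.6 in dwarf mice. The genotypes were thus separate at 6 months and overlapped at 22 months. Orm3 fell 4.54-fold in young dwarf mice (log2 -2.18 ± 0.44, adjusted p = 0.00367) and rose 7.83-fold with age in dwarf mice (log2 2.97 ± 0.47, adjusted p = 0.00151). With the 3' to 5' ratio as a covariate the ageing difference was 1.65 (adjusted p = 0.144), and without animals 82 and 88 the call at 6 months was lost (adjusted p = 0.0685).

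At 22 months the Orm3 difference between genotypes was 0.49 ± 0.50 (-0.58 to 1.57, adjusted p = 0.825). The interaction of Orm3 was 2.68 ± 0.67 (1.26 to 4.09, adjusted p = 0.0493). It was lost on leaving out any one of 12 of the 14 arrays, with changes between 2.24 and 2.91, and with a floor at the 10th or 40th percentile.

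**Figure D2:**
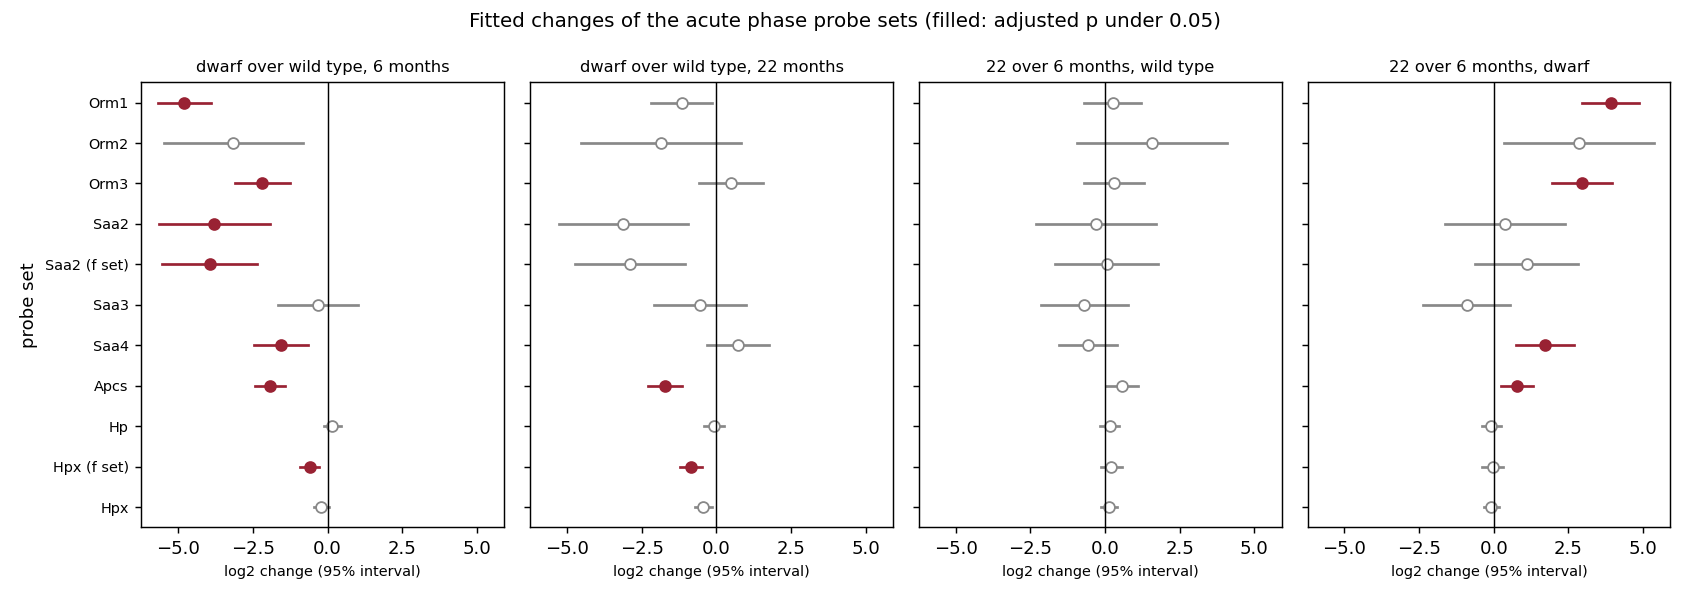
Fitted log2 change and 95% interval of each acute phase probe set in 4 comparisons of the groups (dwarf over wild type at 6 and at 22 months, 22 over 6 months in wild type and in dwarf mice). Filled symbols passed at an adjusted p under 0.05: 7 at 6 months and 2 at 22 months, all lower in dwarf mice, then 0 for ageing wild types and 4 for ageing dwarfs, all higher.

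Saa2 encodes a major inducible serum amyloid A of liver. The RefSeq table gives the name Saa1 as a synonym of Saa2 and the reverse, so the annotation's Saa2 may stand for either gene, and the brighter probe set has a suffix that marks sets which may detect related transcripts. This brighter set read 35618.9, 9281.8, 1524.9 and 18975.4 in young wild type mice and 851.9, 1213.3, 336.3 and 490.8 in young dwarf mice. In old mice it read 4209.0, 23287.8 and 10980.1 in wild type and 1129.1, 1059.1 and 2238.1 in dwarf animals. Dwarf mice lay below wild type mice at both ages, and wild type mice spanned 23.4-fold against 6.66-fold in dwarf mice.

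The brighter Saa2 set fell 15.4-fold at 6 months (log2 -3.94 ± 0.75, adjusted p = 0.00251). At 22 months the difference was -2.88 ± 0.87 (-4.73 to -1.04), not past the threshold (adjusted p = 0.0984). Fitting the 22-month groups alone, array weights, the 3' to 5' ratio as a covariate or leaving out animal 86 brought both Saa2 sets under it (adjusted p 0.0144 to 0.0458). Ageing in dwarf mice gave 1.11 ± 0.81 (adjusted p = 0.363), and the interaction gave 1.06 ± 1.15 (-1.38 to 3.5, adjusted p = 0.729).

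The other Saa2 set read 31867.1, 5672.6, 639.8 and 11894.4 in young wild type mice and 516.6, 709.4, 277.5 and 374.4 in young dwarf mice. It read 1629.5, 15386.3 and 4797.3 in old wild type mice and 559.2, 443.0 and 751.3 in old dwarf mice. Animal 86 lay below dwarf animal 85, so the young groups overlapped, whereas the old ones did not. It fell 13.8-fold at 6 months (log2 -3.79 ± 0.88, adjusted p = 0.00938, and 0.0561 without a filter on dim probe sets), and the 22-month difference was -3.11 ± 1.01 (adjusted p = 0.136). Both Saa2 sets had a correlation of 0.98 over the 14 arrays. Without animals 82 and 88 the call at 6 months was lost for the less bright set (adjusted p = 0.131).

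Saa3, made by macrophages and adipocytes as well as by liver, was low except in 1 mouse. Its signals were 3351.1, 313.1, 215.3 and 194.1 in young wild type mice and 331.3, 553.7, 294.9 and 324.8 in young dwarf mice. They were 263.6, 264.2 and 328.4 in old wild type mice and 193.7, 173.5 and 217.1 in old dwarf mice. Animal 82 stood above all other mice, and neither the old genotypes nor the young and old dwarf mice overlapped. No difference passed: -0.33 ± 0.63 at 6 months (-1.67 to 1.01, adjusted p = 0.757), -0.55 ± 0.73 at 22 months (adjusted p = 0.889) and -0.91 ± 0.68 with age in dwarf mice (adjusted p = 0.377). The last of these passed as lower without animal 82 (adjusted p = 0.025), without animals 82 and 88 (0.021) and when the dwarf groups were fitted alone (0.0459).

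Saa4 encodes the constitutive serum amyloid A. Its signals were 847.6, 488.6, 314.1 and 1577.3 in young wild type mice and 208.5, 362.0, 231.1 and 153.5 in young dwarf mice. They were 308.7, 480.8 and 627.6 in old wild type mice and 838.6, 456.1 and 1103.2 in old dwarf mice. The young genotypes overlapped. Old dwarf mice lay above all young dwarf mice and overlapped the wild type mice. Saa4 fell 2.96-fold at 6 months (log2 -1.57 ± 0.43, adjusted p = 0.023) and rose 3.30-fold with age in dwarf mice (log2 1.72 ± 0.46, adjusted p = 0.0206).

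Both Saa4 calls were lost when some single arrays were left out. The first was lost without animal 82 (adjusted p = 0.0632), 87 (0.0502), 88 (0.0646) or 89 (0.0701), and the second without animal 3 (adjusted p = 0.0752), 8 (0.086) or 89 (0.0539). The first was also lost with no filter (0.0874), with array weights (0.0788) and without animals 82 and 88 (0.254), and the second with no filter (0.0749). With the 3' to 5' ratio as a covariate the ageing difference of Saa4 was 0.07 (adjusted p = 0.943). At 22 months the genotype difference was 0.73 ± 0.49 (-0.32 to 1.77, adjusted p = 0.638), and the interaction of 2.29 ± 0.65 did not pass (adjusted p = 0.0928). It passed without animal 86 (adjusted p = 0.0418).

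Apcs encodes serum amyloid P, the pentraxin that is a main acute phase protein of the mouse and a constant part of amyloid deposits. Its signals were 15196.1, 13030.4, 8975.6 and 8178.8 in young wild type mice and 3691.6, 4065.6, 2212.6 and 2157.0 in young dwarf mice. They were 13177.0, 15792.1 and 20751.3 in old wild type mice and 5381.9, 4822.1 and 4715.4 in old dwarf mice. All 7 dwarf mice, at 5381.9 or less, lay below all 7 wild type mice, at 8178.8 or more.

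Apcs fell 3.77-fold at 6 months (log2 -1.92 ± 0.23, 95% interval -2.41 to -1.42, adjusted p = 4.98e-05) and 3.28-fold at 22 months (log2 -1.71 ± 0.27, -2.29 to -1.14, adjusted p = 0.00118). The difference between the ages was 0.20 ± 0.36 (-0.56 to 0.96, adjusted p = 0.849). Apcs rose 1.71-fold with age in dwarf mice (log2 0.77 ± 0.25, adjusted p = 0.0488), a call that was lost under quantile normalization (0.0884), with the 3' to 5' ratio as a covariate (0.219) and on leaving out any one of 9 arrays (adjusted p 0.0507 to 0.15). In wild type mice the ageing difference of 0.57 ± 0.25 (0.03 to 1.11) did not pass (adjusted p = 0.255).

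Hp encodes haptoglobin, which binds free hemoglobin. Its signals were 27436.2, 24303.8, 22085.1 and 30951.6 in young wild type mice and 31789.7, 26347.3, 34303.1 and 25131.6 in young dwarf mice. They were 28052.4, 27729.7 and 31517.4 in old wild type mice and 30908.0, 24039.3 and 28220.3 in old dwarf mice. All groups overlapped, and the 7 wild type mice spanned 1.43-fold. The genotype difference was 0.17 ± 0.14 at 6 months (-0.13 to 0.46, adjusted p = 0.454) and -0.08 ± 0.16 at 22 months (-0.42 to 0.27, adjusted p = 0.959). The ageing difference was 0.16 ± 0.15 in wild type mice (-0.16 to 0.48) and -0.08 ± 0.15 in dwarf mice (-0.40 to 0.24).

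Hpx encodes hemopexin, the plasma carrier of free heme, and its probe sets differed. The less bright one, whose suffix marks possible cross-detection of related transcripts, read 18320.4, 15265.5, 11871.0 and 11846.7 in young wild type mice and 9866.1, 8660.4, 9782.0 and 9060.3 in young dwarf mice. It read 13869.6, 16429.3 and 19202.4 in old wild type mice and 9495.9, 7879.6 and 10279.2 in old dwarf mice. The genotypes were separate at both ages. It fell 1.51-fold at 6 months (log2 -0.59 ± 0.15, adjusted p = 0.0172) and 1.79-fold at 22 months (log2 -0.84 ± 0.18, adjusted p = 0.0132). The first call was lost without animal 82 (adjusted p = 0.0569), and the second without animal 24 (0.0819) or 4 (0.0851).

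The brighter Hpx set read 26776.4, 25083.5, 22462.5 and 25701.0 in young wild type mice and 23351.1, 20360.0, 23408.3 and 19583.1 in young dwarf mice. It read 26312.3, 26277.5 and 30292.1 in old wild type mice and 22132.6, 18006.6 and 21471.2 in old dwarf mice. The genotypes overlapped at 6 months and were separate at 22 months. Neither difference passed, with -0.21 ± 0.11 at 6 months (-0.45 to 0.04, adjusted p = 0.244) and -0.43 ± 0.13 at 22 months (-0.71 to -0.15, adjusted p = 0.107). The first passed as lower under median scaling (adjusted p = 0.0464). The second passed as lower with the filter at the 75th percentile (0.0433) and with array weights (0.0278).

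Averaged over both ages, Orm1, both Saa2 sets, Apcs and both Hpx sets passed as lower in dwarf mice, 6 of the 11, where 5.62% of all probe sets tested were called lower. Their median log2 difference over the 11 was -0.84, against 0.05 over all. The averaged call of the brighter Hpx set was lost with no filter (adjusted p = 0.0568), with no trend (0.0636) and without animals 82 and 88 (0.0904). It was also lost on leaving out any one of 4 arrays (adjusted p 0.0529 to 0.0965).

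Mice of the same group differed from each other in a shared way. After each group's mean was taken off, the correlation over the 14 arrays was 0.94 between Orm3 and the less bright Saa2 set, 0.86 between Orm2 and either Saa2 set, and 0.88 between Orm2 and Orm3. Orm1 was less like them, at 0.63 with the brighter Saa2 set and 0.79 with Apcs. Hp had a correlation of 0.34 with the brighter Saa2 set and 0.89 with the brighter Hpx set. These are descriptions over mice that share an array each across all probe sets, and animal 82 is high and animals 86 and 1 are low for several genes at a time. Dwarf animal 85 lay above its group's mean for every Orm, Saa and Apcs set, by 1.58 for Orm1 and 1.70 for Orm2 on the log2 scale.

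**Figure D3:**
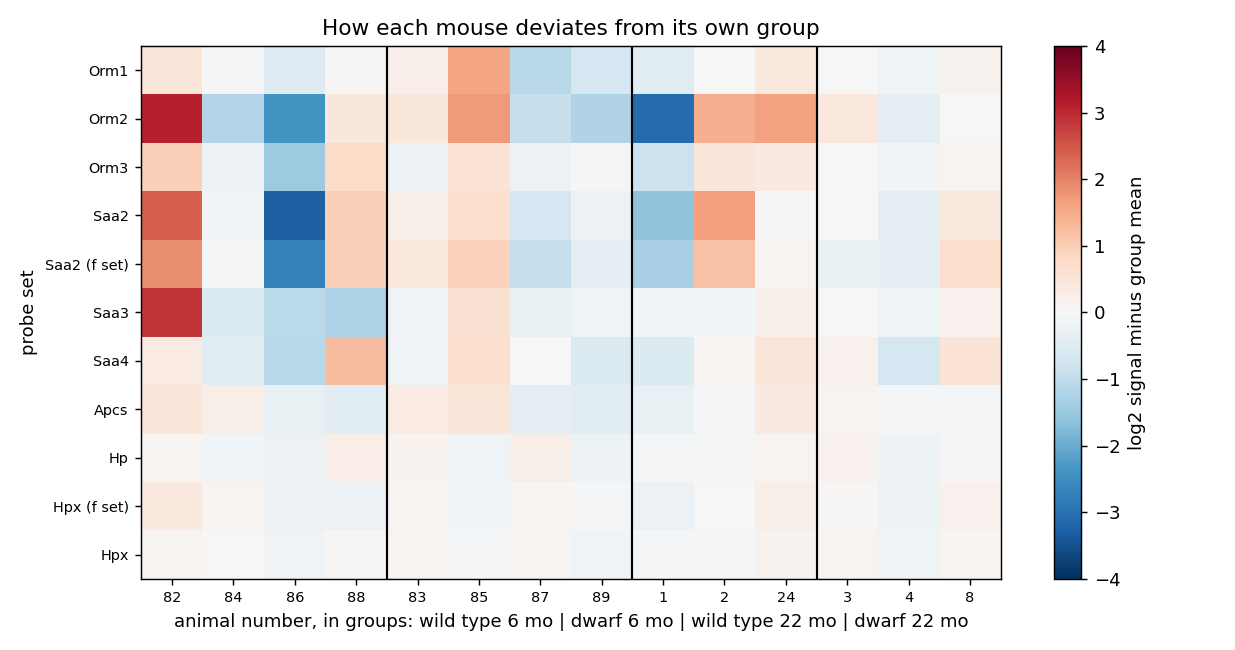
Log2 signal of each acute phase probe set minus the mean of its own group, for each of the 14 mice (columns, by animal number within groups separated by lines). Red is above and blue below the group's mean. Animal 82 is above its group's mean for Orm2, Orm3, Saa2 and Saa3 together, and dwarf animal 85 for every Orm, Saa and Apcs row. Animals 86 and 1 are below theirs for Orm2, Orm3 and Saa2, while the Hp row stays near 0.

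Lcn2, the siderophore-binding protein lipocalin 2 that liver makes in the acute phase, read 3002.4 in animal 82, against 69.5 to 272.4 in the other young wild type mice. Socs3, the feedback inhibitor that STAT3 induces, read 433.2 in animal 82 and 20.6 in animal 86. The neutrophil markers S100a8 and S100a9 read 171.1 and 24.8 in animal 82, against 73.1 to 132.9 and 14.9 to 67.8 in the other young wild type mice. The sum over 10 neutrophil markers, of which Lcn2 is one, was 4239.2 in animal 82. Of these 10 markers 4 were bright enough to be tested. Mmp8 lay at the floor in all young wild type mice and Mmp9 in all young dwarf mice. Without Lcn2 the sum over the other 9 was 1236.8 in animal 82, 994.9 to 1242.8 over the young wild type mice and 1396.4 to 1684.2 over the young dwarf mice. The macrophage sum of 8451.5 in animal 82 was the highest of its group.

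Genes outside the family with the most similar patterns were ranked by Pearson correlation of log2 signal over the 14 arrays, among 6460 single-gene probe sets. For Orm1 they were Apof (0.97), Wfdc21 (0.95), Sepsecs (0.95), Ces3a (0.94) and Alas2 (0.93). Mean signals of Wfdc21, a secreted whey acidic protein-domain protein, were 16226 in young wild type, 118.2 in young dwarf, 15798 in old wild type and 2819.8 in old dwarf mice. For Apcs the 5 were C4bp (0.99), which encodes the complement inhibitor C4b-binding protein, Ly6e (0.96), Ctsc (0.95), Itih1 (0.93) and Gng10 (0.93). For the brighter Saa2 set they were Gas6 (0.94), Lrg1 (0.93), Csrp3 (0.91), Itih4 (0.90) and Atp11a (0.90). With group means taken off, they were Rad51b (0.94), Lrg1 (0.92), Gas6 (0.90), Plk1 (0.89) and Mrap (0.89) for Saa2, and Egln1 (0.88), Zfp92 (0.85), Fzd8 (0.84), Mtch1 (0.84) and Mcrs1 (0.83) for Hp. Lrg1, a secreted leucine-rich glycoprotein, read 11265.4 in animal 82. Its mean signals were 7855.65 in young wild type, 1369.53 in young dwarf, 12826.1 in old wild type and 3893.07 in old dwarf mice.

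The pathway upstream of these genes was followed through lists of genes by role. None of the 6 cytokine ligands (interleukins 1 and 6, tumor necrosis factor, oncostatin M and leukemia inhibitory factor) was bright enough to be tested, though 4 had a probe set. Of 8 receptors 6 were tested, and 2 fell at 6 months, Lifr and the growth hormone receptor Ghr, which was named because it makes up the count, where 6.95% of all probe sets were called lower. The list's median log2 difference was -0.34, against 0.10 over all probe sets tested.

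Lifr encodes the receptor for leukemia inhibitory factor, which signals with gp130. Its signals were 2096.5, 2859.4, 3877.2 and 2618.0 in young wild type mice and 844.1, 838.2, 610.7 and 1124.3 in young dwarf mice, and 2353.5, 2291.9 and 2139.1 in old wild type and 782.1, 666.5 and 495.2 in old dwarf mice. No dwarf mouse reached a wild type mouse. Lifr fell 3.35-fold at 6 months (adjusted p = 3.43e-05) and 3.55-fold at 22 months (adjusted p = 0.000212). The interleukin 6 receptor Il6ra differed by 0.49 ± 0.24 at 6 months (-0.02 to 1.00, adjusted p = 0.188) and by 0.05 ± 0.28 at 22 months (adjusted p = 0.986), and did not pass.

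Of 13 transcription factors and kinases 9 were tested, and 1 rose at 6 months, Stat3 (1.44-fold, log2 0.53 ± 0.15, adjusted p = 0.0286), where 6.37% of all probe sets were called higher. At 22 months 0 of 9 passed in limma. An unadjusted p under 0.05 was found for 2 of 9, and its share over all probe sets was not computed. In 4 of the 9, Cebpb, Foxa2 and Jak1 among them, every old dwarf value lay below every old wild type value, which held for 11.5% of all. In 0 of the 9 every old dwarf value lay above. The list's median log2 difference was -0.05 at 6 months and -0.19 at 22 months. Stat3 signals overlapped between the young groups, and the call was lost under median scaling, with the 3' to 5' ratio as a covariate and without animals 82 and 88. Cebpb, a C/EBP factor, differed by -0.59 ± 0.30 at 6 months (adjusted p = 0.203). At 22 months it differed by -0.51 ± 0.34 (adjusted p = 0.632), which did not pass although the values did not overlap.

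Of 7 inhibitors of the pathway 6 were tested, and 2 rose at 6 months, Il1rn and Nfkbia, where 6.37% of all probe sets were called higher. Their list median was 0.17 at 6 months and -0.43 at 22 months. Il1rn, which encodes the secreted antagonist of the interleukin 1 receptor, read 117.8, 39.2, 91.4 and 42.3 in young wild type mice and 1079.0, 575.8, 1262.4 and 1817.4 in young dwarf mice, and 2 of the wild type values lay below the floor. At 22 months it read 292.3, 129.4 and 75.1 in wild type and 395.3, 240.1 and 280.7 in dwarf mice, which overlapped. Il1rn was thus highest in the group where Orm1 was lowest, rising 14.5-fold at 6 months (log2 3.86 ± 0.41, adjusted p = 1.29e-05), with an interaction of -2.78 ± 0.63 (adjusted p = 0.0328). The interaction did not pass with the 3' to 5' ratio as a covariate or without animals 82 and 88.

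Nfkbia, the NF-kappaB inhibitor, rose 1.5-fold at 6 months (adjusted p = 0.0238). Under median scaling, with the 3' to 5' ratio as a covariate and without animals 82 and 88, Il1rn stayed called at 6 months and Nfkbia did not. Socs3 did not pass at either age, with -1.15 ± 0.52 at 6 months (adjusted p = 0.155) and -1.73 ± 0.60 at 22 months (adjusted p = 0.167). Its old dwarf values lay below all old wild type values, and averaged over both ages Socs3 passed as lower (-1.44 ± 0.40, adjusted p = 0.0289). It was dim, with 1 young wild type and 1 old dwarf value below the floor. Socs2, which growth hormone induces, fell 6.02-fold at 22 months (log2 -2.59 ± 0.34, adjusted p = 0.000217) and differed by -0.89 ± 0.29 at 6 months (adjusted p = 0.0569). Its young dwarf values lay below all young wild type values. Socs2 was called lower at 6 months under quantile normalization, under median scaling, with the 3' to 5' ratio as a covariate and without animals 82 and 88.

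Of 25 other positive acute phase genes 19 were tested. At 6 months 5 fell (Fgb, Hamp, Itih4, Mbl1 and Mbl2), where 6.95% of all probe sets were called lower, and Mt1 rose, where 6.37% were called higher. The median was 0.01 against 0.10 over all. The calls of Hamp and Itih4 at 6 months were lost without animals 82 and 88. At 22 months Itih4 alone passed, as lower, where 1.56% of all probe sets were called lower. An unadjusted p under 0.05, in either direction, was found for 11 of the 19, and its share over all probe sets was not computed. In 9 of the 19 every dwarf value of that age lay below every wild type value, which held for 11.5% of all. In 2 every dwarf value lay above, which held for 10.3% of all. The median at 22 months was -0.37 against 0.01. Itih4, a heavy chain of the inter-alpha-trypsin inhibitor family, fell 1.67-fold at 6 months (adjusted p = 0.0111) and 1.91-fold at 22 months (adjusted p = 0.017). Mbl1 and Mbl2, the mannose-binding lectins that start complement, fell 3.01-fold (adjusted p = 0.000956) and 1.68-fold (adjusted p = 0.00128) at 6 months. Fgb, the fibrinogen beta chain, fell 1.43-fold at 6 months (adjusted p = 0.0419), and its young groups overlapped.

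Lcn2 did not pass, with -2.03 ± 0.88 at 6 months (-3.89 to -0.16, adjusted p = 0.14) and -1.99 ± 1.02 at 22 months (adjusted p = 0.448). Crp, a pentraxin like Apcs, differed by 0.28 ± 0.25 at 6 months (-0.25 to 0.81, adjusted p = 0.48). Serpina3n, an inhibitor of serine proteases, differed by 0.49 ± 0.17 at 6 months (adjusted p = 0.0611). Under quantile normalization Serpina3n and Lbp were called higher at 6 months, and 3 of the 19 then rose and 5 fell. Mt1, a metallothionein that binds zinc, rose 3.71-fold at 6 months (adjusted p = 0.00667).

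Of 11 negative acute phase proteins, whose plasma levels fall in inflammation, 9 were tested. At 6 months 7 were higher in dwarf mice (Alb, Rbp4, Apoa1, Apoa2, Ahsg, Serpina6 and Hgfac), where 6.37% of all probe sets were called higher, but 4 were called under quantile normalization, 1 under median scaling, 3 with the 3' to 5' ratio as a covariate (Ttr was then called lower) and 2 without animals 82 and 88. Alb and Apoa1 also stand among the hepatocyte markers, whose sum was highest in the young dwarf mice. The list's median was 0.47 at 6 months and 0.00 at 22 months, when 0 of 9 passed in limma. At 22 months 0 of 9 had an unadjusted p under 0.05, a share that was not computed over all probe sets. Serpina6, the plasma carrier of corticosterone, was called at 6 months under each of these settings. It read 9219.5, 6413.8, 11121.7 and 11705.7 in young wild type mice and 21460.3, 31595.8, 28057.2 and 31063.5 in young dwarf mice, with no overlap. It rose 2.96-fold (log2 1.57 ± 0.20, adjusted p = 9.34e-05), and at 22 months the difference was 0.20 ± 0.24 (adjusted p = 0.868), with an interaction of -1.37 ± 0.31 (adjusted p = 0.0334). The interaction, unlike the difference at 6 months, was lost under each of these settings. Alb, which encodes albumin, rose 1.36-fold at 6 months (adjusted p = 0.0338), a call that was also lost under each of them.

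Of 9 genes for receptors and partners of these plasma proteins 5 were tested, and at each age Apoa4 alone passed between the genotypes. It fell 4.69-fold at 6 months (adjusted p = 0.000798) and 5.35-fold at 22 months (adjusted p = 0.00289). Of all probe sets tested, 6.95% were called lower at 6 months and 1.56% at 22 months. Cd36 was dim and differed by 0.25 ± 0.41 at 6 months (adjusted p = 0.717) and by 1.79 ± 0.47 at 22 months (adjusted p = 0.051). Its old groups did not overlap, and averaged over both ages Cd36 passed as higher (1.02 ± 0.31, adjusted p = 0.0474). Apoa4 encodes an apolipoprotein of high density lipoprotein. Lrp1, the hemopexin receptor, and Scarb1, the receptor for high density lipoprotein, differed by -0.17 ± 0.25 and 0.29 ± 0.17 at 6 months and did not pass (adjusted p = 0.676 and 0.28).

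**Figure D4:**
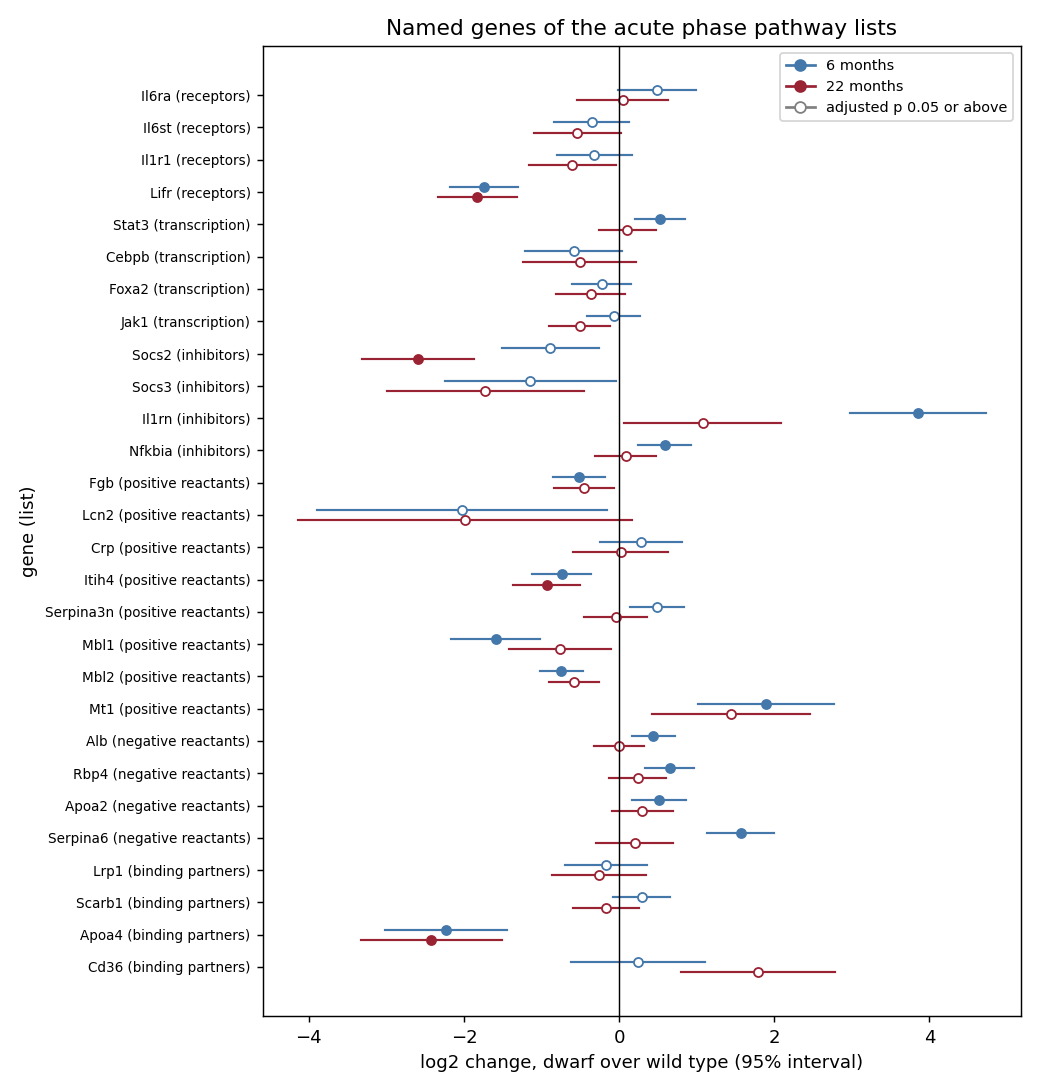
Log2 change of dwarf over wild type liver with its 95% interval for the named genes of the pathway lists, at 6 months (blue) and 22 months (red); filled symbols passed at an adjusted p under 0.05. Lifr and Apoa4 lie left of 0 at both ages, Il1rn and Serpina6 lie right of 0 with filled symbols at 6 months alone, and Il6ra, Cebpb and Crp have open symbols at both ages.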

How the data were processed

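Liver total RNA of 14 mice was hybridised to Affymetrix mouse arrays, 1 mouse per array. Per the labels and the submitters' processing notes, the authors deposited signal intensity values made with MAS5 on a linear scale. Their 2% trimmed mean ran from 500.357 to 500.437 per array. The version, scaling target, detection calls and build are not given in the sources used here. Array pairs had log2 correlations of 0.812 to 0.964, and the number of arrays limits the precision.

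Signals below the pooled 25th percentile (54.9) were set to it, and log2 was taken. Probe sets above the pooled median (184.8) on at least 3 arrays were tested, 7227 of 12488 with 66 control sets left out, and this filter passed all 11 member sets. One mean per group was fitted with limma 3.58.1 in R 4.3.3 (lmFit, eBayes with an intensity trend) over all 14 arrays, with 6 contrasts and Benjamini-Hochberg adjustment within each over all tested sets, at 0.05, two-sided. A fold is 2 to the fitted log2 difference and, because of the floor, understates the change of dim genes. The fit was tested on simulated data. The annotation names 1 gene for 10833 probe sets, several for 396 and none for 1193, and only the first were named. A gene with several tested sets was represented in the lists by its brightest.

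Named genes were all member sets, in each pathway list up to 4 genes with the smallest p for the genotype difference averaged over ages, 10 genes fixed by name (Il6ra, Stat3, Socs3, Il1rn, Cebpb, Crp, Lcn2, Serpina3n, Fgb and Alb), and the 5 genes most alike to each of 3 members, or 2 after group means were taken off. Other names make up a stated count. Members and lists were chosen with earlier results of these data known. Alternatives were other scalings, floors, filters and variance models, array weights, restricting the fit to the groups in a contrast, and omitting 1 array at a time. Fits with the 3' to 5' ratio as a covariate (mean log2 ratio of the actin and Gapdh controls) or without animals 82 and 88 were chosen after seeing the data.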

Additional observations from a re-analysis of the deposited data

Results flagged for a closer look

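Saa3 in young wild type animal 82 read 3351.1, and the next value of its group was 313.1. The gap was 0.832 of the group's range, above Dixon's 95% critical value for 4 samples. The probe set shared by Orm2 and Orm1 read 3657.9 in young dwarf animal 85, with the next value at 1138.4. The gap was 0.833 of the range, again on the log2 scale. These are 2 of 24 groups of 4 examined, and chance gives about 1 in 20.

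The genotype effect differed between ages by the interaction term for Orm1 (log2 3.65) and Orm3 (log2 2.68).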

How the results depend on the processing

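No member's difference changed direction where it had passed. Of the alternatives of single differences that passed, 173 kept the call and 32 lost it, and of those that had not passed, 521 stayed so and 23 passed. The count at 6 months was 7, 3 without animals 82 and 88, and 5 to 8 on leaving out 1 array. It was 9 under median scaling, 5 with no filter, 6 with array weights and 6 with the filter at the 75th percentile (9 of 11 members tested). At 22 months it was 2, and 5 with array weights, 5 with the compared groups alone, 4 with the 3' to 5' ratio as a covariate, 4 without animals 82 and 88 and 1 to 4 on leaving out 1 array. With age in wild type mice it was 0, and 1 with the covariate (Saa4, -1.12, adjusted p = 0.0448). With age in dwarf mice it was 4, then 2 with no filter, 1 with the covariate (Orm1), 6 without animals 82 and 88, 5 with the compared groups alone and 2 to 5 on leaving out 1 array. Each of these counts of 5 or 6 includes Saa3, called lower. The interaction count was 2, then 1 with either other floor, a pseudocount, the filter at the 75th percentile (9 of 11 members tested), no trend, array weights or the covariate, 0 with no filter or without animals 82 and 88, and 1 to 3 on leaving out 1 array. The average count of 6 ran from 5 to 8. The causes were not tested. Median scaling moved the median log2 difference of all probe sets at 6 months from 0.10 to -0.10 and the calls from 460 higher and 502 lower to 188 and 846, and with age in dwarf mice from 574 and 619 to 925 and 242. No paired analysis was possible because the groups share no animal numbers. Dim sets (Orm3) are limited by the floor.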
